A study of Mus musculus with 8 samples.

Results

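The genes described here encode the stalk of the nuclear RNA polymerases. They are Polr2g, which encodes RPB7 and was the gene delivered to the liver in this study, its partner Polr2d (RPB4), the RNA polymerase III stalk gene Crcp (RPC9) and the RNA polymerase I stalk gene Twistnb (RPA43, also named Polr1f). They were chosen by name, and all 4 were found among the 20894 genes of the count table. Livers came from wild-type mice given an AAV8 vector (adeno-associated virus, serotype 8) and fasted in daytime before they were killed. In the vector, the TBG promoter, which is active mainly in hepatocytes, drove either POLR2G (4 libraries) or green fluorescent protein (GFP, 4 control libraries), so both groups carried AAV8 and both were fasted. For strain, sex, age and vector dose the sources used here give nothing. RNA was measured by poly-A selected RNA sequencing.

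RNA polymerase II carries a stalk, a pair of subunits that projects from the enzyme beside the channel through which new RNA leaves. RPB7 binds RNA and docks the stalk on the core enzyme, and RPB4 binds RPB7. In yeast the pair can leave the enzyme, and it has been tied to export, translation and decay of mRNA. RNA polymerase III has a related pair, of which RPC9 (Crcp) is the subunit matching RPB4, and RPA43 is the subunit of RNA polymerase I that matches RPB7, where it is needed for contact with an initiation factor.

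The reads that count as Polr2g are those that match its annotated mouse transcripts, so the start of its coding sequence, where those transcripts differ, is shown first. GENCODE M21 annotates 2 coding transcripts, of 890 and 833 bases, on the minus strand of chromosome 19 (GRCm38, gene 8793127 to 8798577). The coding sequence of the longer one, Polr2g-201, spans 519 bases with its stop codon and lies between 8793394 and 8798470 without that codon. The other coding transcript contains 507 of these bases and lacks the first 12. Its own annotated coding sequence is 207 bases long and begins downstream of the stretch shown, so the capitals are not coding in that transcript. Capitals mark the bases found in both transcripts, and lower case the 12 found in Polr2g-201 alone. The stretch is on the minus strand, written 5′ to 3′.

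Polr2g-201, first 300 bases of the coding sequence: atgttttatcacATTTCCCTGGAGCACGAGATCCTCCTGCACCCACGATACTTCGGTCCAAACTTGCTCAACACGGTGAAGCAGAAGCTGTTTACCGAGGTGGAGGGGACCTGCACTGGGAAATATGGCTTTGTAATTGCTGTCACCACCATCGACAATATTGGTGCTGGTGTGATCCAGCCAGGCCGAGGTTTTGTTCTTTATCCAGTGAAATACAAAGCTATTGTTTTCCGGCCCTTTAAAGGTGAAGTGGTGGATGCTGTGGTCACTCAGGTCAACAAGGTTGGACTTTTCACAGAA

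None of the 980 distinct words of 31 bases in the coding transcripts of Polr2g occurred in a GENCODE M21 transcript of another gene, on either strand. The same was true of the 1519 words of Crcp. Of 4295 words of Twistnb, 12.4% also occurred in the processed pseudogenes Gm8670 and Gm43083, and 0.889% of the 1012 words of Polr2d occurred in other processed pseudogenes. Those pseudogenes were not analysed here. The libraries were strand-specific per the labels' protocols, and the sources used here do not say whether the counting used strand. The transcript set that the submitters used may differ from GENCODE M21.

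Libraries held 14159056 to 22165491 estimated counts, and the totals did not separate the groups (n = 4 each, exact two-sided permutation p = 0.371). No label links a library to its animal, and the p-values therefore rest on the spread between libraries, which may be technical. The 95% intervals are not adjusted for the number of genes. 1 of the POLR2G libraries has a column number that the labels do not list and is called the unnumbered library. In bulk tissue, fewer cells of a type and less RNA per cell cannot be told apart. The summed level of 8 hepatocyte markers was 123800 to 146300 CPM (counts relative to the TMM-scaled total of each library) in the GFP and 116100 to 130500 CPM in the POLR2G libraries (exact permutation p = 0.114). Summed markers of Kupffer cells (exact permutation p = 0.514), sinusoidal endothelial cells (p = 0.8286), stellate cells (p = 0.629), cholangiocytes (p = 0.771), lymphocytes (p = 0.486) and neutrophils (p = 1) overlapped between the groups too, and Ly6g was at 0 in all libraries. Their part in the results was not tested. Some genes that every cell needs have few or no counts: Polr2a, the largest RNA polymerase II subunit, is listed at 0 in all 8 libraries and Actb at 0 to 29 counts. Levels and folds are therefore those of the table, which may not cover all transcripts of a gene. Of coding genes with 1 coding transcript, 34.5% were at 0 in all libraries, against 10.2% of those with 4 or more. The cause of the low counts was not tested. GENCODE M21 gives 1 coding transcript for Twistnb, 2 for Polr2g and Polr2d, and 3 for Crcp.

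Polr2g, the delivered subunit, was raised in each POLR2G library. Its counts were 219, 255, 213 and 258 in GFP replicates 1 to 4. They were 54553, 40979 and 40373 in POLR2G replicates 1, 3 and 4, and 38649 in the unnumbered library. The groups were far apart and each library matched its group, which for the unnumbered library is known from its column name alone. On the CPM scale Polr2g measured 12.4, 14.8, 13.7 and 13.98 in GFP replicates 1 to 4. It measured 2632, 2399 and 2300 in POLR2G replicates 1, 3 and 4, and 2315 in the unnumbered library. The relative spread was similar in both groups: the SD was 6.37% of the mean in the POLR2G group and 7.31% in the GFP group. Polr2g was 176-fold higher in the POLR2G libraries (95% interval 149.8-fold to 206.0-fold, log2 fold change 7.46, SE 0.102, edgeR adjusted p = 3.23e-10). Over all 10390 genes tested, 0.0385% passed this threshold (edgeR, Benjamini-Hochberg adjusted p under 0.05), 0.0192% higher and 0.0192% lower in the POLR2G libraries. At an unadjusted p under 0.05 the share was 8.30% of all genes, made up of 4.20% higher and 4.10% lower. The groups did not overlap in CPM for 5.51% of genes, with 2.83% higher and 2.68% lower. Reads of the vector and of the mouse gene were not separated, so the level of the endogenous transcript under POLR2G was not tested.

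Polr2g was among the most abundant genes in the POLR2G libraries but not in the GFP libraries. Polr2g held 0.00116% to 0.00157% of all counts in the GFP libraries and 0.220% to 0.246% in the POLR2G libraries. By count it ranked between 4695 and 5110 in the GFP libraries and between 52 and 57 in the POLR2G libraries. Of all counts given to RNA polymerase II subunit genes, Polr2g took 5.98% to 7.37% in the GFP and 91.4% to 92.7% in the POLR2G libraries, with Polr2a listed at 0. On the scale of CPM per kilobase of mean coding transcript, Polr2g ranked at 2654 of 20815 genes with a length in the GFP group and at 42 in the POLR2G group. The length is that of the annotated mouse transcripts, and that of the vector's transcript was not measured here and may differ. Levels and ratios of Polr2g per kilobase in the POLR2G group, here and below, rest on that length.

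**Figure D1:**
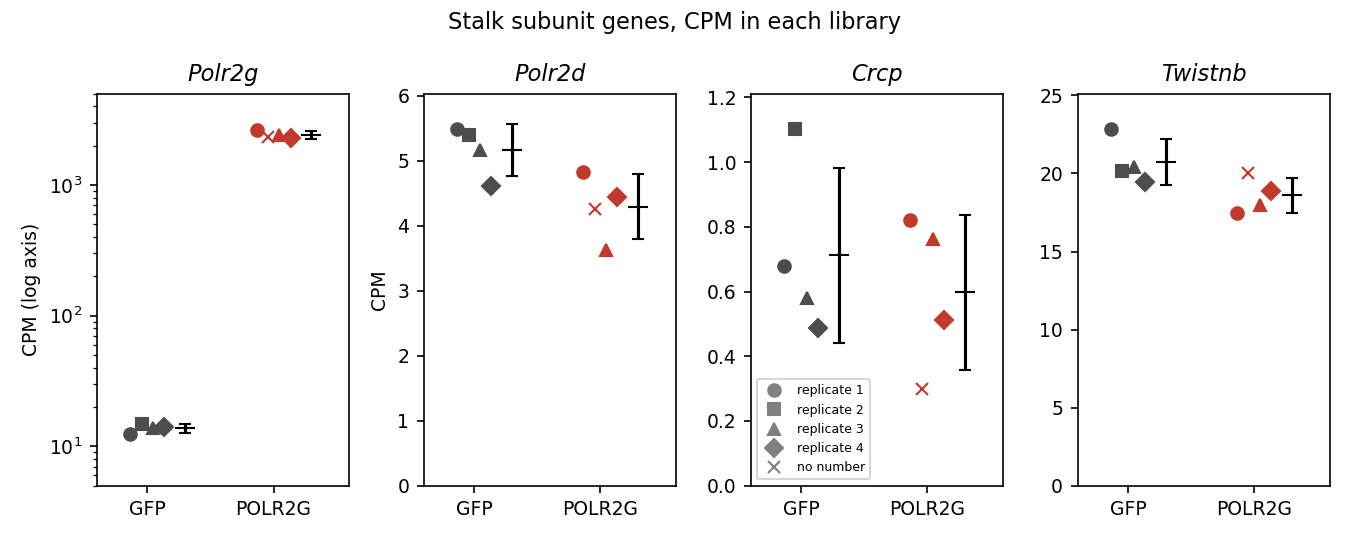
CPM of Polr2g (log axis), Polr2d, Crcp and Twistnb (linear axes from 0) in each of 4 GFP and 4 POLR2G libraries. Marker shape gives the replicate, the black bar the mean ± SD of a group. Polr2g lies at 12.4 to 14.8 CPM in the GFP and at 2300 to 2632 CPM in the POLR2G libraries, and the groups overlap for each of the other 3 genes.

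Polr2d encodes RPB4, which pairs with RPB7, and lies on the plus strand of chromosome 18, 31789159 to 31796701. Its level was slightly lower on average in the POLR2G libraries and did not pass the test. Polr2d measured 5.48, 5.40, 5.16 and 4.61 CPM in GFP replicates 1 to 4, from 97, 93, 80 and 85 counts. It measured 4.83, 3.63 and 4.44 CPM in POLR2G replicates 1, 3 and 4, and 4.25 in the unnumbered library, from 100, 62, 78 and 71 counts. The groups overlapped through 1 library on each side: GFP replicate 4 was below POLR2G replicate 1. The means were 5.16 ± 0.395 and 4.29 ± 0.499 CPM (SD, n = 4 each). The log2 fold change was −0.27 (SE 0.170, edgeR adjusted p = 0.751; exact two-sided permutation p = 0.0571). Its 95% interval ran from −0.65 to 0.12, so a rise of Polr2d above 1.084-fold or a fall to below 0.638 times the GFP level lies outside it.

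The ratio between the stalk genes of RNA polymerase II was far higher in the POLR2G libraries. Per kilobase of coding transcript, the ratio of Polr2g to Polr2d was 2.23, 2.70, 2.62 and 2.98 in GFP replicates 1 to 4. The ratio was 532, 640.2 and 504 in POLR2G replicates 1, 3 and 4, and 529.6 in the unnumbered library. The mean rose from 2.64 ± 0.311 to 552 ± 60.4 (n = 4 each, 209.6-fold on the log scale). The exact two-sided permutation p was 0.0286, the smallest that 4 against 4 libraries allow. Polr2g was the delivered gene, with the groups far apart, so this outcome was set in advance and adds no evidence. POLR2G replicate 3 had the highest ratio and also the lowest Polr2d level, while its Polr2g level was the second of the 4.

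Among the stalk genes of the other polymerases none passed the test. Twistnb, on the plus strand of chromosome 12 (33429635 to 33441392), encodes RPA43 of RNA polymerase I, the enzyme of ribosomal RNA synthesis. Twistnb measured 22.8, 20.1, 20.4 and 19.5 CPM in GFP replicates 1 to 4. It measured 17.5, 18.0 and 18.9 CPM in POLR2G replicates 1, 3 and 4, and 20.1 in the unnumbered library. The unnumbered library lay within the GFP range and the other 3 POLR2G libraries below it. The means were 20.7 ± 1.47 and 18.6 ± 1.14 CPM (SD, n = 4 each). The log2 fold change was −0.16 (SE 0.0877, 95% interval −0.35 to 0.041, edgeR adjusted p = 0.707; exact permutation p = 0.0571). Twistnb had 307 to 404 counts in a library and the narrowest interval of the 4 genes.

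Crcp, on the plus strand of chromosome 5 (130029290 to 130060789), encodes RPC9 of RNA polymerase III, the enzyme of transfer RNA synthesis, and was first described as a component of a receptor for the peptide CGRP. It had few counts, 12, 19, 9 and 9 in GFP replicates 1 to 4. POLR2G replicate 1 had 17, replicate 3 had 13, replicate 4 had 9 and the unnumbered library had 5. The lowest and the highest library belonged to different groups, and the other 6 were mixed. The means were 0.712 ± 0.272 and 0.598 ± 0.240 CPM (SD, n = 4 each). The log2 fold change was −0.24 (SE 0.446, edgeR adjusted p = 0.936), but 0.045 without GFP replicate 2, the library with 19 counts, so no direction can be given. The 95% interval from −1.24 to 0.76 corresponds to 0.422 to 1.70 times the GFP level.

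The stalk genes differed in level among the control livers. In the GFP group, Polr2g stood at 15.9 ± 1.16 CPM per kilobase, above Polr2d at 5.998 ± 0.459, Twistnb at 4.79 ± 0.341 and Crcp at 0.707 ± 0.270 (SD, n = 4; mean length of the coding transcripts). Polr2d and Twistnb were next to each other, at 5.35 to 6.37 and 4.50 to 5.28 CPM per kilobase, and overlapped when the longest transcript was used (Polr2d 4.54 to 5.40). In the POLR2G group the order below Polr2g was Polr2d (4.98 ± 0.580), Twistnb (4.30 ± 0.263) and Crcp (0.594 ± 0.238 CPM per kilobase). There the ranges of Polr2d and Twistnb overlapped.

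The core subunits of RNA polymerase II, on which the stalk docks, are given next. Of 10 core genes, Polr2a and Polr2j had too few counts to be tested. Of the 8 tested, none passed in either direction with edgeR (2 at an unadjusted p under 0.05, beside 8.30% of all genes tested). DESeq2 called 1, beside 140 among all genes tested, and gave no adjusted p for Polr2i. With limma-voom none passed. Of these 8, 7 had a higher mean in the POLR2G libraries, with a median log2 fold change of 0.11 beside −0.0031 for all genes tested.

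Polr2l, a small zinc-binding subunit shared by all 3 nuclear polymerases, was closest to the threshold. Polr2l measured 34.2, 33.5, 31.2 and 31.5 CPM in GFP replicates 1 to 4, and 45.4, 41.2 and 46.4 in POLR2G replicates 1, 3 and 4, and 44.6 in the unnumbered library. The POLR2G libraries were all above the GFP libraries, as for 2.83% of all genes tested. The log2 fold change was 0.45 (SE 0.0685, edgeR adjusted p = 0.103). DESeq2 called it (adjusted p = 4.32e-05), and over all alternatives the adjusted p ranged from that value to 0.517.

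Polr2b, the second-largest subunit, measured 65.1 ± 5.53 and 76.1 ± 4.05 CPM (log2 fold change 0.22, SE 0.0787, edgeR adjusted p = 0.477). Its POLR2G libraries were all above the GFP libraries, again as for 2.83% of all genes tested. Polr2e, a subunit shared by all 3 polymerases, measured 19.4 ± 2.03 and 22.4 ± 1.91 CPM (log2 fold change 0.20, SE 0.103, edgeR adjusted p = 0.654) and the groups overlapped. Polr2k, another shared subunit, had the highest level of the core genes in the GFP group, 27.3 CPM per kilobase, against 29.1 in the POLR2G group (log2 fold change 0.090, SE 0.157). In the GFP group, Polr2g itself sat among these genes, between Polr2e at 16.9 and Polr2b at 15.7 CPM per kilobase. In the POLR2G group it measured 2799 CPM per kilobase.

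**Figure D2:**
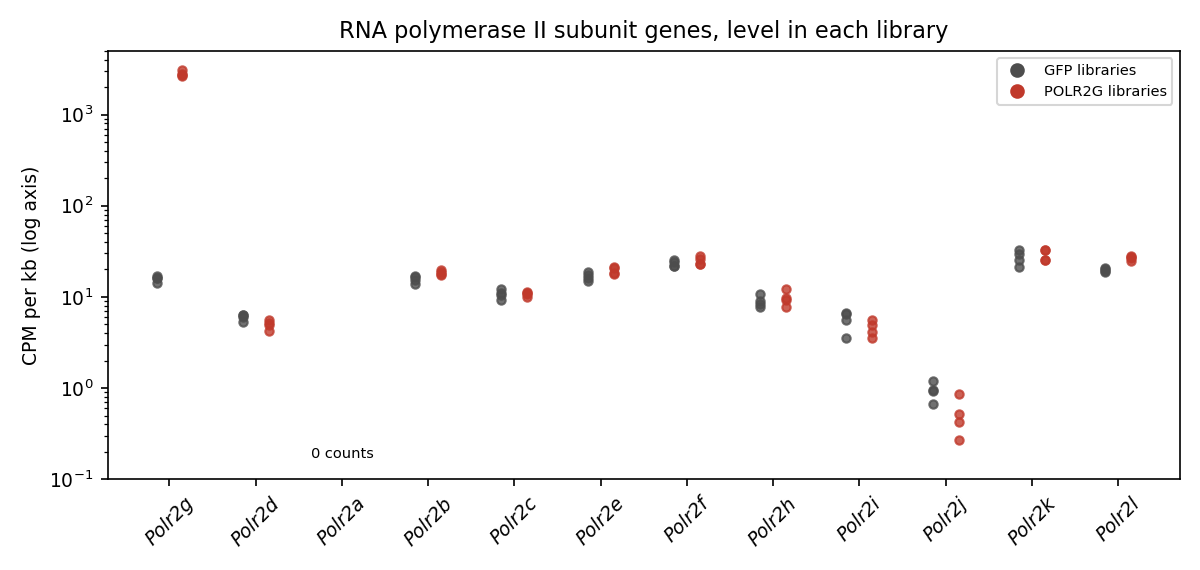
Level of the RNA polymerase II subunit genes in CPM per kilobase of mean coding transcript (log axis), 1 point for each of 4 GFP (grey) and 4 POLR2G (red) libraries. Polr2g rises from 15.9 to 2799 CPM per kilobase on average, while the groups overlap for Polr2d and for the core genes other than Polr2b and Polr2l, and Polr2a has 0 counts.

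Subunits of RNA polymerases I and III other than Crcp and Twistnb were tested for 13 of 17 genes. Polr1a was not analysed here, and Polr1b, Polr1c and Polr3g had too few counts. None passed with edgeR, at an unadjusted p under 0.05 or adjusted, nor with DESeq2 or limma-voom. DESeq2 gave no adjusted p for Polr3d. Of the 13, 8 had a higher and 5 a lower mean (median log2 fold change 0.080, beside −0.0031 for all genes tested). Polr3gl, a subunit of the initiation subcomplex of RNA polymerase III, measured 11.4 ± 1.94 and 13.2 ± 0.751 CPM (log2 fold change 0.21, SE 0.133, and 0.34 without GFP replicate 2). Polr3d, another RNA polymerase III subunit, had 4 to 33 counts and a log2 fold change of −1.13 (SE 0.730), which was −1.93 without POLR2G replicate 4. With the replicate block it was −0.65, and −0.54 in the same 6 libraries without the block. Polr1d, shared by RNA polymerases I and III, had the highest level of the list, 45.4 CPM per kilobase in the GFP and 45.3 in the POLR2G group (log2 fold change −0.0021, SE 0.0632, 95% interval −0.14 to 0.14).

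**Figure D3:**
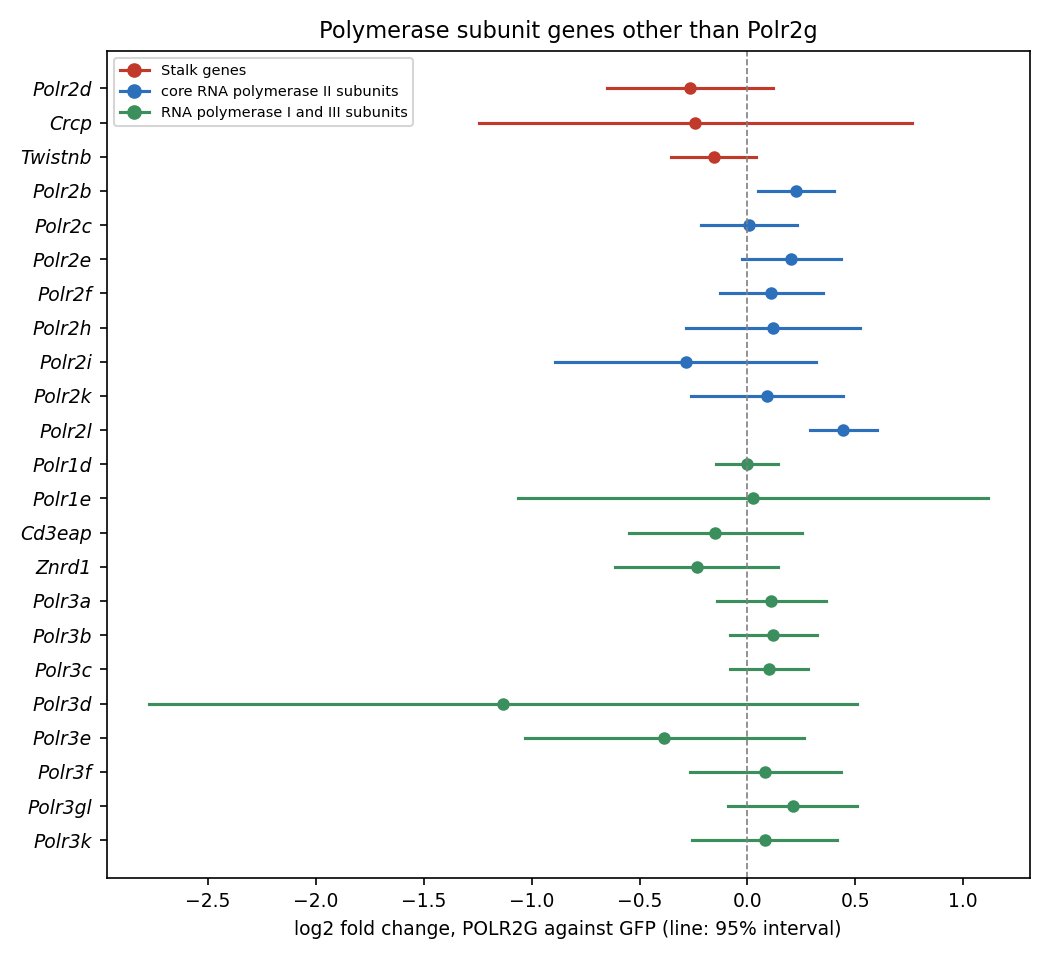
Log2 fold change of POLR2G against GFP libraries (points) with its 95% interval (lines) for the stalk genes other than Polr2g and for the tested subunit genes of the 3 polymerases (12 of 13 for RNA polymerases I and III). Polr2d, Crcp and Twistnb have intervals that include 0, and Polr2l at 0.45 and Polr2b at 0.22 have intervals above 0 but do not pass after adjustment over all genes.

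Polymerase subunits are assembled in the cytoplasm by dedicated chaperones and carried into the nucleus. Of 18 assembly factor genes 14 were tested. None passed with edgeR (1 at an unadjusted p under 0.05, beside 8.30% of all genes tested), DESeq2 or limma-voom. DESeq2 gave no adjusted p for Rpap1, Rpap2 and Ruvbl2. Of the 14, 10 had a higher and 4 a lower mean (median log2 fold change 0.049, beside −0.0031 for all genes tested). Uri1, a prefoldin-like chaperone that binds Polr2e, measured 39.9 ± 4.77 and 47.6 ± 4.24 CPM (log2 fold change 0.26, SE 0.101, edgeR adjusted p = 0.530). Pdrg1, another prefoldin-like factor, measured 18.2 ± 0.778 and 21.0 ± 2.34 CPM (log2 fold change 0.21, SE 0.0968, edgeR adjusted p = 0.620). Its POLR2G libraries were all above the GFP libraries, as for 2.83% of all genes tested. Without POLR2G replicate 4 its log2 fold change was 0.12. Ruvbl2, an ATPase of the R2TP chaperone complex, had 2 to 70 counts and a log2 fold change of 1.14 (SE 0.753), which was 1.90 without GFP replicate 1 and 0.68 without the unnumbered library. Pfdn2, a prefoldin subunit, had the highest level of the list at 40.1 CPM per kilobase in the GFP and 41.99 in the POLR2G group (log2 fold change 0.067, SE 0.0770), which was −0.0043 with scaling by library totals only.

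Factors that touch the stalk in RNA polymerase II, or that are tied to it after transcription in yeast, were tested for 12 of 15 genes. Supt4a was not analysed here, and Lsm2 and Lsm4 had too few counts. None passed with edgeR, at an unadjusted p under 0.05 or adjusted, nor with DESeq2 or limma-voom. DESeq2 gave no adjusted p for Ctdp1. Of the 12, 11 had a lower mean in the POLR2G libraries (median log2 fold change −0.15, beside −0.0031 for all genes tested). Whether the list moved as a set was not tested. The exception was Lsm7, a subunit of the LSm ring that binds mRNA before decapping. Lsm7 measured 11.4 ± 0.766 and 13.3 ± 1.33 CPM (log2 fold change 0.22, SE 0.111, edgeR adjusted p = 0.654). Its POLR2G libraries were all above the GFP libraries, as for 2.83% of all genes tested. Gtf2f2, a TFIIF subunit, measured 9.81 ± 0.942 and 8.67 ± 0.5003 CPM (log2 fold change −0.18, SE 0.122). The elongation factor genes Supt6 (log2 fold change −0.20, SE 0.134) and Supt5 (−0.093, SE 0.0871) did not pass either. Without GFP replicate 1 their log2 fold changes were −0.056 and −0.027, and without GFP replicate 2 that of Supt5 was −0.15. That of Lsm7 was 0.15 without the unnumbered library. In the GFP group Supt5 had the highest level of the list, 16.8 CPM per kilobase. In the POLR2G group it stood at 15.8, below Lsm7 at 16.6 CPM per kilobase.

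Genes next to Polr2g give the values of the same chromosomal region. Of 10 coding genes of the table within 50 kb of it, 8 were tested. None passed with edgeR (1 at an unadjusted p under 0.05, beside 8.30% of all genes tested), DESeq2 or limma-voom. DESeq2 gave no adjusted p for Taf6l and Ttc9c. The log2 fold changes of the 8 ran from −0.34 to 0.25 with a median of 0.012, against 7.46 for Polr2g. The lowest was that of Nxf1, the main mRNA export receptor, which lies 22204 bases from Polr2g. Nxf1 measured 45.6 ± 5.49 CPM in the GFP and 35.9 ± 2.20 CPM in the POLR2G libraries, with the groups apart (log2 fold change −0.34, SE 0.0957, edgeR adjusted p = 0.360). Stx5a, a syntaxin of the Golgi, had the highest (0.25, SE 0.113) and its groups overlapped. Taf6l, the nearest tested neighbour, lies 6709 bases away and encodes a subunit of histone acetyltransferase complexes (0.18, SE 0.299). When 1 library was left out, its log2 fold change ran from 0.046 (without GFP replicate 4) to 0.49 (without GFP replicate 2), and it also moved by over 1.5 times without GFP replicate 1 (0.10), GFP replicate 3 (0.11), POLR2G replicate 3 (0.27) or POLR2G replicate 4 (0.083). Hnrnpul2, an RNA-binding protein gene with 2216 to 2809 counts, had a log2 fold change of −0.013 (SE 0.0637), which was 0.0090 with upper quartile scaling. Tmem223, Tmem179b, Ttc9c and Bscl2 were between −0.058 and 0.046, and the sign of Tmem223 and Tmem179b turned with scaling by library totals only and that of Ttc9c with upper quartile scaling.

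**Figure D4:**
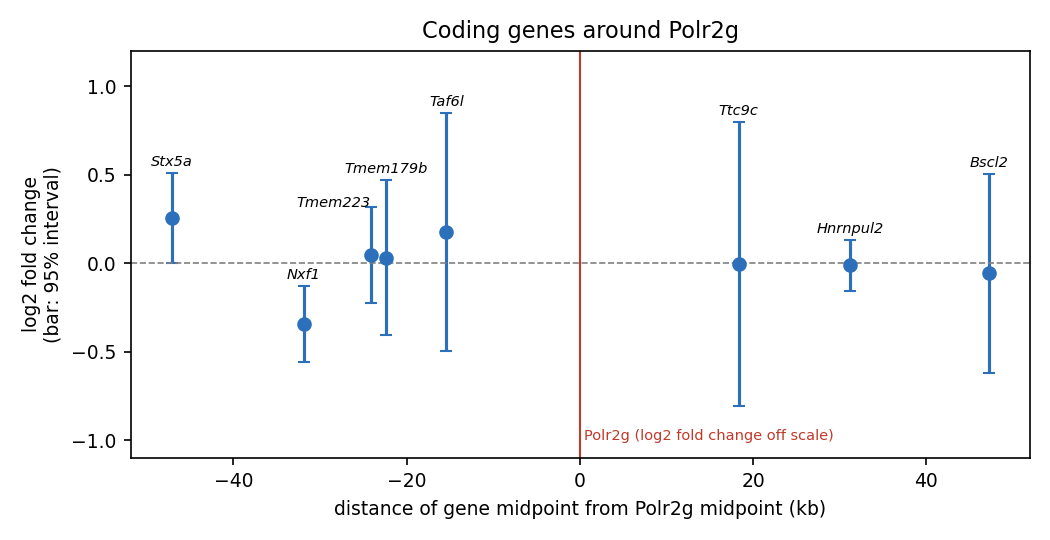
Log2 fold change of POLR2G against GFP libraries with its 95% interval (bars) for the 8 tested coding genes within 50 kb of Polr2g, by the distance of their midpoints in kb. All lie between −0.34 and 0.25, and Polr2g (7.46) is off the scale.

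Genes whose log2 CPM followed a member most closely over the 8 libraries were listed as a description, with no test, among the 8318 genes compared with each of Polr2g, Polr2d and Twistnb and the 8319 compared with Crcp. For Polr2g they were Yipf3 (Pearson r = 0.98), Hsd3b3 (0.98) and Gpt (0.97). For each of the 3 all POLR2G libraries lay above all GFP libraries, as for 2.83% of all genes tested. Polr2g differed almost only by group, so a high r with it picks genes that separate the groups. Hsd3b3 passed the edgeR threshold (adjusted p = 0.0227), and Yipf3 (0.437) and Gpt (0.131) did not. Hsd3b3 encodes a hydroxysteroid dehydrogenase and Gpt an alanine aminotransferase. For Polr2d they were Olfr648 (r = 0.95), Rab11b (0.94) and Mgme1 (0.94). For Twistnb they were Selenot (r = 0.97), Ftsj3 (0.96), a ribosomal RNA processing factor, and Mavs (0.96). For Crcp they were Sys1 (r = 0.98), Trim8 (0.95) and Il17rb (0.92), each with the unnumbered POLR2G library lowest. The points of each correlation share library depth and scaling, and the highest values among so many genes are high by selection.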

How the data were processed

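Per the labels' protocols, RNA from snap-frozen liver was poly-A selected and made into strand-specific libraries. The deposited table holds estimated counts as whole numbers for 20894 genes in 8 libraries, which the authors deposited without normalization. Salmon 1.2.1 and the builds GRCm38 and mm10 are named in the submitters' processing notes, with no role for the builds. The sources used here do not say how transcripts were combined into genes or rounded. Symbols (20817 genes) were taken from a separate list of gene names. Coordinates, lengths and transcripts were taken from the GENCODE M21 annotation of GRCm38, with positions 1-based.

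Columns were matched to samples by library name. Genes were tested in edgeR 4.0.16 under R 4.3.3 (two-sided quasi-likelihood test, TMM scaling, no covariate). Genes were filtered with the edgeR function filterByExpr (minimum count 10, and 15 counts in all), which left 10390 genes. The minimum count applies on the CPM scale in as many libraries as a group holds, so single libraries can lie below it. The p-values were Benjamini-Hochberg adjusted over the genes left, at 0.05. The SE is the log2 fold change divided by the square root of F. Exact permutation tests with all 8 libraries run over all 70 arrangements. They used log2 CPM (prior count 2) for genes, and for the ratio the difference of such values, scaled by length. For library totals they used the totals themselves, and for markers log2 of the summed CPM with an offset. No 2 libraries of a group were duplicates (chi-square of their counts 12.9 to 126.6 per degree of freedom).

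The 4 genes, the 4 lists (core RNA polymerase II subunits, RNA polymerase I and III subunits, assembly factors, stalk contacts and mRNA decay factors) and the marker lists were chosen with earlier results of these data known. Named are the 4 genes. In each list the rule names the called members or, with none called, the 3 with the smallest p, and also the member with the highest CPM per kilobase; 1 gene that the rule names is not reported here. It also names all tested coding genes within 50 kb of Polr2g, and for each of the 4 genes the 3 named genes with the highest Pearson r and a mean log2 CPM of at least 1. Polr2a, Actb, genes without enough counts, and Polr2i, Rpap1, Rpap2 and Ctdp1 were named after their values were seen. Alternatives were upper quartile scaling, RLE scaling, library totals only, DESeq2 1.42.0, limma-voom (limma 3.58.1), a robust dispersion fit, no filter, a filter of 1 CPM in 4 libraries, Polr2g left out of library sizes, each library left out in turn, and a block for the replicate number. For the ratio they were the longest transcript, a prior count of 0.5 and each library left out.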

Additional observations from a re-analysis of the deposited data

Results flagged for a closer look

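Among the 28 named genes and the Polr2g to Polr2d ratio, each group of 4 libraries was searched for a library far from the other 3 (by Dixon's test, the gap to the next library as a share of the range), and 3 of 58 groups had 1. Chance flags about 1 in 20 groups, so this number is near the chance rate. None of the stalk genes was among them. Pdrg1 measured 24.4 CPM in POLR2G replicate 4, against 19.6 to 20.2 in the other 3 POLR2G libraries. Lsm7 measured 15.3 CPM in the unnumbered POLR2G library, against 12.5 to 12.7 in the other 3. Taf6l measured 4.18 CPM in GFP replicate 2, against 1.90 to 2.26 in the other 3 GFP libraries.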

How the results depend on the processing

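Polr2g, Polr2d and Twistnb kept their direction and their side of the threshold in all 19 alternatives. The ratio of Polr2g to Polr2d did so in all 10, but this was set in advance by the distance between the groups. Its exact permutation p was 0.0286 in each, the smallest possible, and the length used cancels out of the difference. The log2 values ran from 7.38 to 7.51 (Polr2g), −0.34 to −0.19 (Polr2d), −0.23 to −0.11 (Twistnb) and 7.63 to 7.77 (ratio). The adjusted p of Polr2d ranged from 0.616 to 0.883 and of Twistnb from 0.5475 to 0.885. The low counts of Crcp limit it: its log2 fold change was 0.25 with the replicate block and 0.26 in the same 6 libraries without the block, a fit added after seeing the data, and −0.44 to 0.045 when 1 library was left out. The stricter filter left Crcp out, and DESeq2 gave it no adjusted p. The number of genes called, 4 in all, was 1 with library totals only, 140 with DESeq2, 2 with the replicate block, 1 in the same 6 libraries without the block, and 1 to 6 when 1 library was left out. It was 1 without POLR2G replicate 1 or replicate 4, and 2 without GFP replicate 2 or the unnumbered library. DESeq2 called 1 core RNA polymerase II subunit gene, Polr2l (log2 fold change 0.45). Small values of uncalled genes changed sign: with library totals only, Pfdn2 to −0.0043, Tmem179b to −0.051 and Tmem223 to −0.035; with upper quartile scaling, Hnrnpul2 to 0.0090, Polr1d to 0.020 and Ttc9c to 0.019; with limma-voom, Ttc9c to 0.040; with the replicate block Tmem179b to −0.062, and to −0.065 in those 6 libraries without it. Leaving out 1 library gave −0.23 to 0.052 for Bscl2, −0.043 to 0.0071 for Hnrnpul2, −0.029 to 0.025 for Polr1d, −0.0097 to 0.19 for Polr2k, −0.086 to 0.12 for Tmem179b, −0.057 to 0.12 for Tmem223 and −0.17 to 0.26 for Ttc9c. The cause of these changes was not tested. Same-numbered libraries deviated together with r from −0.017 to 0.068, so the numbers were not taken as pairs.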
